A study of Sus scrofa with 8 samples.

Results

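The enzymes described here are 9 genes of odorant metabolism in the nasal mucosa: the cytochrome P450 genes CYP2A19, CYP1A1 and CYP1B1, the P450 reductase gene POR, the flavin-containing monooxygenase genes FMO1, FMO2 and FMO5, the epoxide hydrolase gene EPHX1 and the glucuronosyltransferase gene UGT2A1. They were chosen by gene name, with no measured value in the rule, but with earlier results of these data known. Of the 9 names, 8 matched a gene identifier among the 22516 genes of the deposited files. UGT2A1 matched none and was not analysed here. The RNA came from the olfactory epithelium (OE) of 4 sows, 8 months old, in estrus and offspring of Landrace (♂) and Rongchang (♀) pigs. The androstenone treatment group was 2 sows sprayed with Boarmate, a spray whose main component is the boar pheromone androstenone, and the control group was 2 sows that were not sprayed. Tissue was taken 30 min after the spray, with 1 library from each side of the nose of each sow, so that a group held 4 libraries. The labels do not tell which libraries share a sow, so a p-value below measures the spread between libraries, and each group held only 2 animals.

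Odorants that enter the nasal mucus are broken down by enzymes of the same families that clear drugs in the liver. Phase I enzymes add or uncover a reactive group: cytochrome P450s oxidize their substrates with electrons that POR, the reductase in the membrane of the endoplasmic reticulum, takes from NADPH, flavin-containing monooxygenases oxidize nitrogen and sulfur atoms, and microsomal epoxide hydrolase (EPHX1) opens the epoxides that P450s can form. Phase II enzymes such as glucuronosyltransferases and glutathione S-transferases then attach a water-soluble group. In mammals, enzymes of this kind are abundant in the sustentacular cells and Bowman glands of the olfactory mucosa, and several are also made by the respiratory epithelium beside it.

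The libraries differed in depth and in tissue makeup, which bears on each value below. Control 1 held 4178330 counts, where each of the remaining 7 libraries held 81580146 to 100685566, and in control 4 the 10 most counted genes took 29.4% of all counts. Of the 9 matched markers of mature olfactory neurons, whose sum was 80.2 to 215 TPM (a level scaled for transcript length and library total), STOML3 reached up to 190 and ANO2 up to 50.4 TPM. OMP and CNGB1 could not be matched by name and were not analysed here. Several defining genes of olfactory neurons were at or near 0. RTP2 was listed at 0 in all 8, RTP1 reached at most 0.0380 TPM and GNG13 at most 0.493 TPM. LHX2, a marker of immature neurons, reached at most 0.0950 TPM. Others of the mature list were higher: CNGA2 lay between 0.279 and 5.01 TPM, GNAL between 0.497 and 8.87 TPM and ADCY3 between 6.25 and 15.0 TPM. FOXJ1, the master regulator of motile cilia, lay between 73.2 and 531 TPM. The sustentacular marker SEC14L3 lay between 111 and 522 TPM, and ERMN, another of that list, between 0.226 and 1.80 TPM. No pair of libraries was within sampling noise, but androstenone 1 resembled androstenone 2, and androstenone 3 resembled androstenone 4. Their chi-square per gene was 112 to 117, against 738 to 1119 for the other pairs of that group.

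The enzyme genes spanned levels from among the most abundant transcripts of the tissue to a median of 0.440 TPM. By median TPM over the 8 libraries, CYP2A19 came first with 676, followed by EPHX1 with 573, FMO1 with 160, POR with 141, FMO2 with 89.4, FMO5 with 10.1, CYP1B1 with 5.59 and CYP1A1 with 0.440. Together the 8 genes made up from 0.0920% of all TPM in control 4 to 0.311% in androstenone 2. CYP2A19 ranked between 67 and 273 and EPHX1 between 98 and 362 among all genes of a library. Neighbours in this order were compared within libraries with a two-sided exact sign-flip permutation test on log2(TPM + 0.1), with p adjusted over the 7 pairs. The smallest unadjusted p this test can give with 8 libraries is 0.0078. The test takes the 8 libraries as independent, although they came from 4 sows, so its p measures the spread between libraries and not between animals. The pairs were set by ranking the same TPM values, so the tests give no independent support for the order.

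EPHX1 exceeded FMO1 in 8 of 8 libraries, by 3.45-fold on average (geometric mean, exact permutation test, adjusted p = 0.0182). FMO2 exceeded FMO5 in 8 of 8 libraries by 9.97-fold, with the narrowest spread of any neighbouring pair (SD 0.24 on the log2 scale, n = 8, exact permutation test, adjusted p = 0.0182). CYP1B1 exceeded CYP1A1 in 8 of 8 libraries by 3.47 ± 1.58 on the log2 scale (SD, n = 8, exact permutation test, adjusted p = 0.0182). POR exceeded FMO2 in 7 of 8 libraries by 1.66-fold (exact permutation test, adjusted p = 0.0410). The remaining 3 neighbours did not differ beyond their spread: CYP2A19 was above EPHX1 in 5 of 8 libraries (exact permutation test, adjusted p = 0.0875), FMO1 was above POR in 4 of 8 (exact permutation test, adjusted p = 0.883), and FMO5 was above CYP1B1 in 6 of 8 (exact permutation test, adjusted p = 0.620). The order of the last pair turned in controls 2 and 4, where CYP1B1 was highest.

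**Figure D1:**
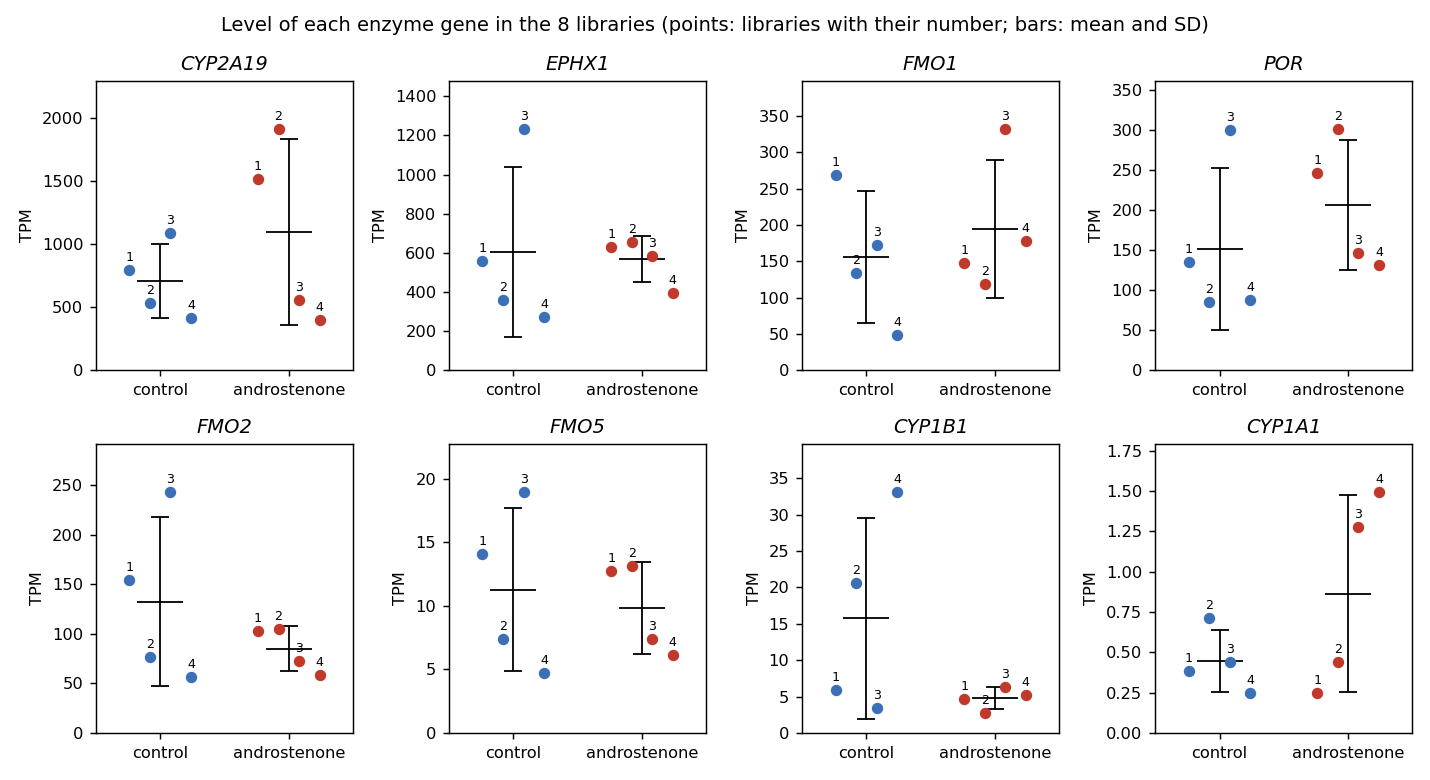
TPM (vertical axis, linear from 0) of the 8 enzyme genes in the control group (blue) and the androstenone treatment group (red). Each point is a library with its number beside it, and bars give the mean and SD of 4 libraries. The groups overlap in every panel, and CYP2A19 lies at 1520 and 1911 in androstenone 1 and 2 but at 557 and 395 in androstenone 3 and 4.

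The comparison of the groups asks whether transcripts of these enzymes differed 30 min after the spray. The controls received no spray, so androstenone cannot be told apart from the rest of the spray or from spraying itself. In what follows, "with androstenone" names the sprayed group. CYP1B1 was the only one of the 8 genes past the cutoff that the study names (unadjusted p below 0.05 with a log2 fold change of 1 or more in size), and it was lower with androstenone. CYP2A19, POR, FMO1, CYP1A1 and EPHX1 had fold changes above 0, FMO2 and FMO5 below 0, and none of these 7 passed. That is 1 of 8 genes (12.5%), where the background over all 21318 genes tested was 6.42% in either direction, 4.38% for lower values alone and 2.04% for higher values alone. A single gene of 8 is near this background. No enzyme gene passed after Benjamini-Hochberg adjustment over all genes in edgeR's quasi-likelihood test. At adjusted p below 0.05 the test called 0 of all genes, while 2415 had an unadjusted p below 0.05, and edgeR's exact test called 157, its likelihood ratio test 200, DESeq2 670 and limma voom 0. The groups overlapped for 8 of 8 enzyme genes in CPM, which is the count scaled to the library size that TMM sets, where 6.53% of all genes did not overlap (3.89% higher and 2.64% lower with androstenone). The median log2 fold change of the 8 genes was 0.27, against -0.021 over all genes tested.

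**Figure D2:**
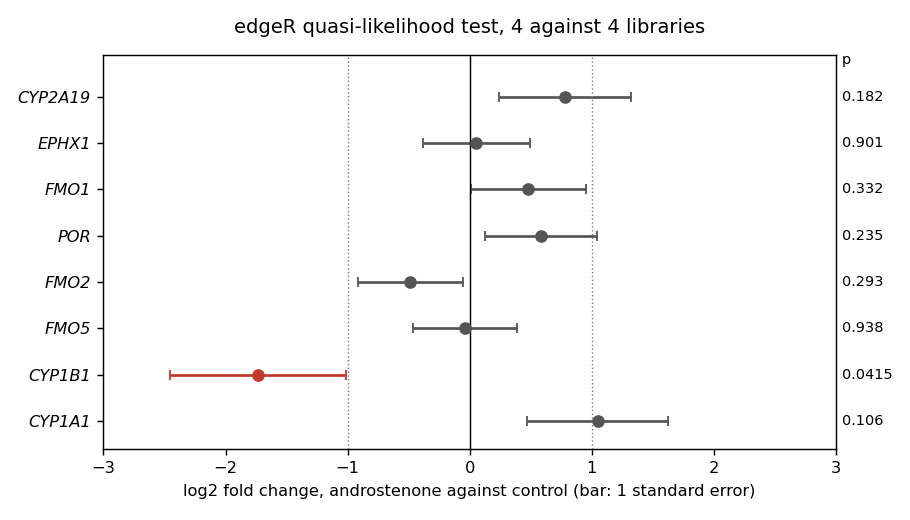
log2 fold change of each enzyme gene, androstenone against control (horizontal axis), with bars of 1 standard error and the unadjusted p of edgeR's quasi-likelihood test at the right. Dotted lines mark -1 and 1, and the red point, CYP1B1 at -1.73, is the one gene past the cutoff, while the points of EPHX1 and FMO5 lie at 0.056 and -0.034.

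CYP2A19 belongs to the CYP2A subfamily, whose nasal members in other mammals oxidize many small odorants and which in pig liver breaks down skatole, another compound of boar taint. It lies on chromosome 6 at 49056579 to 49064111 (RefSeq annotation of Sscrofa11.1), where the RefSeq annotation also places LOC110260991 over it, and whether this affected the read assignment was not tested. Its TPM was 794, 534, 1085 and 417 in controls 1 to 4. In androstenone 1 to 4 it was 1520, 1911, 557 and 395. Androstenone 1 and 2 were above every control library, and androstenone 4 was below every one. The means were 719 ± 264 CPM (SD, n = 4) for control and 1236 ± 839 CPM for androstenone. This gave a log2 fold change of 0.78 ± 0.54 (SE), with unadjusted p = 0.182 and adjusted p = 0.583 in edgeR's quasi-likelihood test. It was 0.36 without androstenone 2 and 1.07 without androstenone 4, where the unadjusted p = 0.0572 of edgeR's test did not pass.

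CYP1A1 and CYP1B1 are the P450s best known as targets of the aryl hydrocarbon receptor, and they oxidize polycyclic aromatic compounds and estrogens. CYP1A1 (chromosome 7, 58802887 to 58809155) had the lowest median TPM of the 8 enzyme genes. Its level was 0.382, 0.711, 0.441 and 0.248 TPM in controls 1 to 4, and 0.250, 0.439, 1.27 and 1.49 TPM in androstenone 1 to 4. The value of control 1 rested on 4 counts and those of the others on 46 to 358. Androstenone 3 and 4 lay above all controls, and androstenone 1 and 2 lay within the control range. Its log2 fold change was 1.05 ± 0.58 (SE), with unadjusted p = 0.106 and adjusted p = 0.510 in edgeR's test. Without androstenone 4 it was 0.68 and without androstenone 3 0.79, neither past the cutoff. Without androstenone 1 it was 1.35, past the cutoff with unadjusted p = 0.0279 in edgeR's test, and with counts summed per sow CYP1A1 passed in 2 of 9 possible pairings of the libraries.

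CYP1B1, which is known in stromal cells of many tissues, was the gene with the widest range, 13.8-fold in CPM between the highest and the lowest library. Its level was 5.93, 20.6, 3.44 and 33.1 TPM in controls 1 to 4. In androstenone 1 to 4 it was 4.69, 2.70, 6.37 and 5.25 TPM. Controls 2 and 4 were above all androstenone libraries, and controls 1 and 3 were within their range. In CPM the means were 74.5 ± 73.8 (SD, n = 4) with control and 22.5 ± 7.23 with androstenone, and the log2 fold change was -1.73 ± 0.72 (SE, unadjusted p = 0.0415, adjusted p = 0.433 in edgeR's test). The summed TPM of 6 fibroblast markers, all of 6 matched and none at 0, was 3634, 14245, 2097 and 86065 in controls 1 to 4 and 615 to 3597 in the androstenone libraries. The fibroblast sum was highest in the same 2 libraries as CYP1B1, and 2 of its 6 genes, COL1A1 and COL1A2, were lower with androstenone at the cutoff. Over all genes tested, 4.38% were lower with androstenone at the cutoff. The sum of 6 bone markers, none at 0, was 27238 TPM in control 4 and 198 to 1057 TPM in the other 7 libraries, and all 6 were lower with androstenone at the cutoff. In controls 1 to 3 the bone sum was 456, 538 and 1057 TPM, against 198 to 987 TPM in the androstenone libraries, so that outside control 4 the groups overlapped. The part of these cells in the CYP1B1 result was not tested, and in whole tissue fewer cells of a type and less RNA per cell cannot be told apart.

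The CYP1B1 call depended on single libraries. Without control 4 the log2 fold change was -0.87 (unadjusted p = 0.177 in edgeR's test), and without control 1 and control 4 together -1.16 (unadjusted p = 0.121 in edgeR's test). It was also lost without control 2 (unadjusted p = 0.0755 in edgeR's test) and without androstenone 1, 2, 3 or 4, with an unadjusted p from 0.0552 to 0.0906 in edgeR's test, and held without control 1 (unadjusted p = 0.0233 in edgeR's test) and without control 3 (unadjusted p = 0.00836 in edgeR's test). With counts summed per sow, CYP1B1 passed in 6 of the 9 ways in which the libraries could be paired into sows.

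POR lies on chromosome 3 at 10212734 to 10272184 and encodes the single reductase that serves the microsomal P450s. Its TPM was 135, 85.1, 299 and 87.0 in controls 1 to 4 and 246, 301, 146 and 131 in androstenone 1 to 4. Control 3 was as high as androstenone 2, control 1 lay between androstenone 4 and 3, and controls 2 and 4 were below all androstenone libraries. POR had a log2 fold change of 0.58 ± 0.46 (SE), with unadjusted p = 0.235 and adjusted p = 0.623 in edgeR's test. Without control 3 it was 1.11, past the cutoff with unadjusted p = 0.0165 in edgeR's test, and the groups no longer overlapped in CPM. Without androstenone 2 it was 0.33 and without control 2 0.37, neither past the cutoff. The ratio of CYP2A19 to POR in TPM stayed between 3.02 and 6.36 over the 8 libraries, while CYP2A19 itself varied 4.84-fold.

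FMO1 and FMO2 lie side by side on chromosome 9, FMO2 at 63812016 to 63857608 and FMO1 at 63860957 to 63895086, with 3348 bases between them. FMO1 is the form known from kidney and fetal liver in humans, and FMO2 is the lung form. In spite of this neighbourhood their levels went separate ways across the libraries. FMO1 measured 269, 134, 173 and 48.8 TPM in controls 1 to 4 and 148, 119, 332 and 178 TPM in androstenone 1 to 4. It was lowest in control 4 and highest in androstenone 3, and the log2 fold change was 0.48 ± 0.47 (SE, unadjusted p = 0.332, adjusted p = 0.686 in edgeR's test). Without androstenone 3 the log2 fold change of FMO1 was 0.091, without control 4 it was 0.21 and without control 1 it was 0.85, and none of these passed.

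FMO2 measured 154, 76.3, 243 and 56.3 TPM in controls 1 to 4 and 102, 105, 73.0 and 58.9 TPM in androstenone 1 to 4. Controls 1 and 3 were above all androstenone libraries, while controls 2 and 4 lay among or below them. The log2 fold change of FMO2 was -0.49 ± 0.43 (SE, unadjusted p = 0.293, adjusted p = 0.662 in edgeR's test), and it was -0.035 without control 3. The TPM ratio of FMO2 to FMO1 ranged from 0.220 in androstenone 3 and 0.330 in androstenone 4 to 1.15 in control 4 and 1.41 in control 3. FMO2 was thus the higher of the pair in controls 3 and 4 and the lower in the other 6 libraries.

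FMO5 oxidizes ketones to esters more than it oxidizes nitrogen, unlike the other members of its family. It lies on chromosome 4 at 100336769 to 100372744, where CHD1L overlaps it in the annotation. Its level was 14.1, 7.38, 19.0 and 4.74 TPM in controls 1 to 4 and 12.7, 13.2, 7.36 and 6.12 TPM in androstenone 1 to 4. The androstenone libraries all lay within the control range. FMO5 had a log2 fold change of -0.034 ± 0.43 (SE, unadjusted p = 0.938, adjusted p = 0.981 in edgeR's test), and the direction of so small a value changed between settings.

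EPHX1 lies on chromosome 10 at 13757489 to 13773071 and overlaps TMEM63A in the annotation. Its level was 561, 357, 1232 and 273 TPM in controls 1 to 4. In androstenone 1 to 4 it was 631, 654, 586 and 396 TPM, all within the control range. The androstenone libraries were closer together (667 ± 152 CPM, SD, n = 4) than the controls (641 ± 436 CPM). EPHX1 had a log2 fold change of 0.056 ± 0.44 (SE, unadjusted p = 0.901, adjusted p = 0.969 in edgeR's test), which was 0.64 without control 3 and -0.15 without control 4. EPHX1 exceeded CYP2A19 in TPM in control 3, androstenone 3 and androstenone 4, and reached 0.342 of it in androstenone 2.

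Across libraries the enzyme genes fell into different patterns rather than moving as a set. CYP2A19, POR, FMO2, FMO5 and EPHX1 varied together: among the 10 pairs of these 5 genes, Pearson's r of log2 CPM over the 8 libraries ran from 0.61 for CYP2A19 with FMO2 to 0.93 for FMO2 with FMO5. CYP1B1 ran against all 5, with r from -0.80 to -0.62. FMO1 had r = 0.02 with CYP2A19 and r = 0.22 with its neighbour FMO2. CYP1A1 had its highest r among these genes with FMO1, 0.51. These correlations are descriptions over 8 libraries that share 4 sows and one scaling, and they carry no test.

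The 5 genes that varied together followed several marker sums, that of ciliated cells among them. The summed TPM of respiratory ciliated cell markers, 10 of 11 matched and none at 0, was 1289, 628, 3273 and 543 in controls 1 to 4 and 2260, 2567, 785 and 705 in androstenone 1 to 4. The sum was high in control 3 and in androstenone 1 and 2, the libraries in which CYP2A19 and POR were highest. Over the 8 libraries r between this sum and the 5 genes was 0.86 to 0.97. With the sum of sustentacular markers, 6 of 7 matched and none at 0 (150 to 632 TPM in controls, 136 to 411 TPM with androstenone), r was 0.76 to 0.97. SEC14L3 made up most of that sum, and not every gene in it ran the same way: GPX6 was highest in control 2 at 43.4 TPM and 0.459 TPM in androstenone 2, and TTYH1 was 5.05 TPM in androstenone 3 and 0.733 TPM in androstenone 2. With the sum of mature olfactory neuron markers, in which STOML3 was high in the same libraries, r was 0.84 to 0.95. ANO2 of that list ran the other way, with 3.53 TPM in control 3 and 8.24 and 3.18 TPM in androstenone 1 and 2. In the other libraries ANO2 was between 28.8 and 50.4 TPM. GNAL was 0.497 and 0.737 TPM in androstenone 1 and 2, but 8.87 TPM in control 3. For the 5 genes r was negative with the sums of endothelial markers (4 of 5 matched, none at 0, 22.9 to 150 TPM in controls and 21.8 to 146 TPM with androstenone), from -0.91 to -0.78. With immature olfactory neuron markers (6 of 6 matched, none at 0 in all 8 libraries, 7.29 to 19.1 TPM in controls and 7.75 to 20.2 TPM with androstenone) it ran from -0.94 to -0.70. Sums of secretory cell markers (4 of 5 matched, r from 0.52 to 0.90) and hepatocyte markers (5 of 5 matched, r from -0.91 to -0.63) also moved with these genes. The secretory genes peaked in different libraries: SCGB1A1 at 9425 TPM in control 1, BPIFA1 at 6526 TPM in control 3 and TFF3 at 2563 TPM in androstenone 2. In the hepatocyte list APOA1 reached 223 TPM and SERPINA1 33.4 TPM, while ALB was at most 0.898, TTR at most 0.355 and FGB at most 1.84 TPM. With the Bowman gland and duct sum (4 of 5 matched, none at 0), r of the 5 genes ran only from -0.09 to 0.50. It was -0.11 to 0.12 with serous gland, -0.05 to 0.15 with lymphocyte and -0.30 to -0.07 with bone markers. With fibroblast (-0.74 to -0.52), red blood cell (-0.75 to -0.36) and basal cell markers (-0.60 to -0.30) r was negative. Several of the marker sums moved together too, and genes within a list differed, so these values do not tell which cells made the enzymes.

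FMO1 was highest in androstenone 3 and CYP1A1 in androstenone 3 and 4, the libraries with the highest basal cell markers. The summed TPM of the 2 matched basal cell markers of 4 listed, neither at 0, was 172, 133, 20.3 and 20.3 in controls 1 to 4 and 40.2, 12.1, 582 and 197 in androstenone 1 to 4. Over the 8 libraries r with this sum was 0.72 for FMO1 and 0.70 for CYP1A1. FMO1 also had r = -0.89 with the bone sum and 0.80 with the sum of lymphocyte markers, 7 of 7 matched and none at 0 (1196 to 11185 TPM in controls, 5967 to 12419 TPM with androstenone). JCHAIN, at 1130 to 11979 TPM, made up most of the lymphocyte sum, and not every gene in it ran the same way. MS4A1 was 23.1 TPM in androstenone 3, where FMO1 was highest, and 131 TPM in control 2. The part of these cell types in any difference between the groups was not tested.

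**Figure D3:**
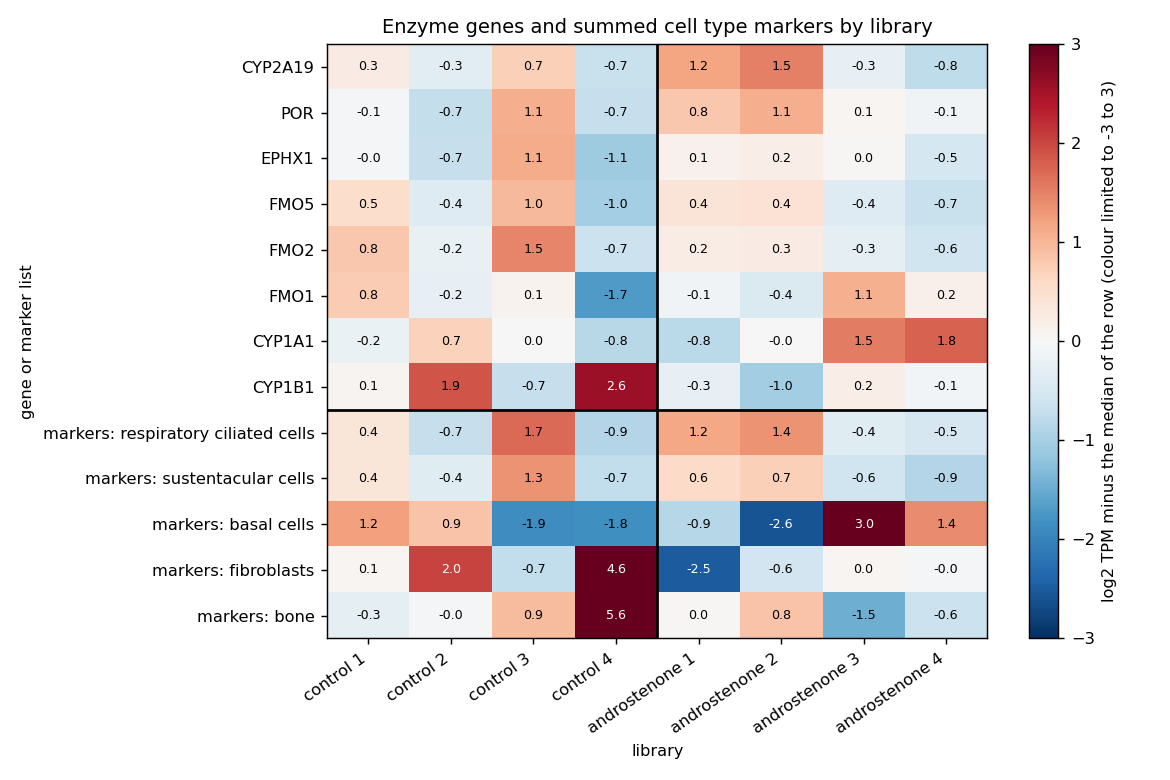
Level of the 8 enzyme genes (above the line) and summed level of 5 cell type marker lists (below it) in each library (columns), as log2 TPM minus the row's median, with the value in each cell. Control 3 and androstenone 1 and 2 are above the median for CYP2A19, POR, EPHX1, FMO5 and FMO2 and for the ciliated and sustentacular markers, and CYP1B1 and the fibroblast markers share their highest values in control 4 and control 2.

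For each enzyme gene, the 3 genes whose log2 CPM followed it most closely over the 8 libraries were taken from 13450 named genes with a mean of at least 1 CPM. Their r lay between 0.93 and 1.00. With so few libraries and so many genes compared, high values are common, and nothing about shared function or control follows. CYP2A19 was followed by PPP1R36, FBXL13 and FBXO43, and POR by ZMYND12, MARVELD3 and VWDE. FMO2 was followed by ATP4A, DYNLT5 and KLC4, FMO5 by PEX11G, LKAAEAR1 and HSD17B8, and EPHX1 by CEP170B, PPOX and SAMD12. FMO1 was followed by ELOVL7, BDKRB2 and ITGB4, CYP1B1 by RAB42, FBLN7 and TMEM161A, and CYP1A1 by CCDC59, TMEM192 and NELFA, whose r with it was the lowest of these sets.

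The enzymes work beside other genes of the same pathway, which were listed by role and not by how they moved, though also with earlier results of these data known. Of 69 other phase I genes, 46 matched, and 1 was higher (ADH7) and 2 were lower (AOX1 and CBR1) with androstenone at the cutoff, 6.52% against the background of 6.42%. Their median log2 fold change was 0.044. The most abundant were ALDH1A1, a retinal dehydrogenase, at 562 to 4534 TPM, and the P450s CYP2F1 at 155 to 709 TPM and CYP4B1 at 133 to 767 TPM, each below CYP2A19 in 8 of 8 libraries. ADH7, an alcohol dehydrogenase of stomach and other epithelia that oxidizes retinol, was 0.616, 0.458, 0.772 and 0.662 CPM in controls 1 to 4 and 2.33, 2.22, 6.26 and 4.02 CPM in androstenone 1 to 4. Its groups did not overlap, although control 1 held 3 counts, and the log2 fold change was 2.56 ± 0.42 (SE, unadjusted p = 0.000241, adjusted p = 0.342 in edgeR's test). CYP2D6, a P450 gene that was not on the list, was also higher with androstenone at the cutoff. Its mean was 2.07 CPM in controls and 12.1 CPM with androstenone. The log2 fold change of CYP2D6 was 2.50 ± 0.89 (SE, unadjusted p = 0.0217, adjusted p = 0.416 in edgeR's test). The counts above hold only for the genes listed.

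AOX1, an aldehyde oxidase, had a log2 fold change of -1.38 ± 0.47 (SE, unadjusted p = 0.0182, adjusted p = 0.416 in edgeR's test) with overlapping groups, and -0.95 without control 4, no longer past the cutoff. CBR1, a carbonyl reductase, had -2.03 ± 0.85 (SE, unadjusted p = 0.0431, adjusted p = 0.435 in edgeR's test), with 16.1 CPM in control 2 against 1.03 to 2.35 CPM in the other controls. Without control 2 its log2 fold change was -0.48 (unadjusted p = 0.360 in edgeR's test). It was also lost without androstenone 1, 3 or 4.

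Among the redox partners, which pass electrons to P450s beside POR or assist it, 6 of 6 matched and 0 passed the cutoff, with a median log2 fold change of 0.18. CYB5A, the cytochrome b5 of the endoplasmic reticulum, reached up to 193 TPM, PGRMC1 between 146 and 334 TPM and CYB5R3 between 36.7 and 123 TPM. CYB5B, the mitochondrial cytochrome b5, was 49.9 ± 2.90 CPM (SD, n = 4) in controls and 67.2 ± 4.82 CPM with androstenone. Its groups did not overlap, but its log2 fold change of 0.43 ± 0.13 (SE, unadjusted p = 0.00940, adjusted p = 0.399 in edgeR's test) was below the cutoff's size.

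Of 60 conjugating enzymes, 32 matched, and 1 was higher and 0 lower at the cutoff (3.12%, median log2 fold change 0.060). That gene was GSTM3, a glutathione S-transferase, with 2.47, 5.30, 1.90 and 6.84 CPM in controls 1 to 4 and 14.8, 13.5, 37.0 and 22.3 CPM in androstenone 1 to 4. The groups did not overlap, and the log2 fold change was 2.38 ± 0.51 (SE, unadjusted p = 0.00129, adjusted p = 0.378 in edgeR's test). How reads were shared between GSTM3 and similar copies of its family was not tested. The most abundant of the list were MGST1 at 74.2 to 420 TPM, GCLC at 39.4 to 249 TPM and MGST3 at 60.7 to 169 TPM, which serve glutathione transfer or glutathione synthesis.

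All 15 regulators of drug metabolism matched, and 1, RXRG, was lower (6.67%, median log2 fold change 0.051). RXRG, a retinoid X receptor that pairs with other nuclear receptors, was 0.616, 0.600, 1.95 and 0.782 CPM in controls 1 to 4 and 0.220, 0.267, 0.167 and 0.219 CPM in androstenone 1 to 4. Its log2 fold change was -2.22 ± 0.47 (SE, unadjusted p = 0.00133, adjusted p = 0.378 in edgeR's test), and the value of control 1 rested on 3 counts. The receptor that drives CYP1A1 and CYP1B1, AHR, had a log2 fold change of 0.25 (unadjusted p = 0.274 in edgeR's test), and its targets AHRR and TIPARP had 0.19 and 0.087, none past the cutoff. The most abundant regulators, NFE2L2, KEAP1 and RXRA, lay between 22.7 and 133 TPM. The groups of NFE2L2 did not overlap (136 to 189 CPM in controls, 203 to 215 CPM with androstenone), but it did not pass the cutoff. Groups lay apart, higher with androstenone, for 4 of 46 other phase I genes, 1 of 6 redox partners, 2 of 32 conjugating enzymes and 1 of 15 regulators. They lay apart, lower, for 1 regulator. Over all genes 3.89% lay apart higher and 2.64% lower, 6.53% in either direction. Of 9 efflux transporters 6 matched and 0 passed, with ABCC1, ABCC3 and SLC47A1 the most abundant and a median log2 fold change of 0.17.

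**Figure D4:**
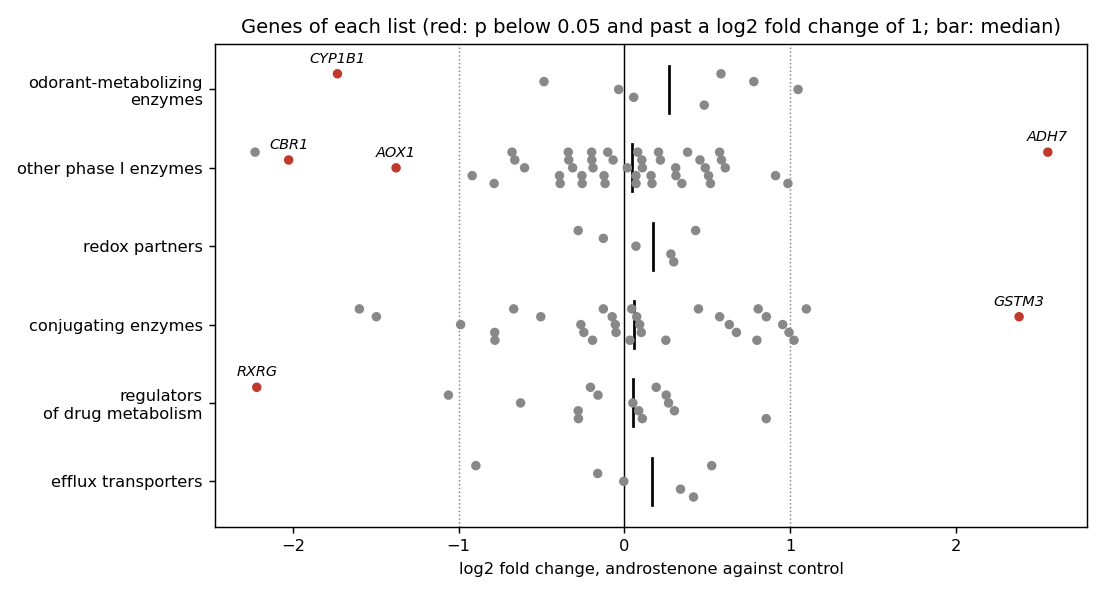
log2 fold change, androstenone against control (horizontal axis), of each gene of the enzymes and of the 5 lists of the same pathway (rows), with the list's median as a bar. Red points are past the cutoff, and these are CYP1B1, AOX1, CBR1 and RXRG on the lower side and ADH7 at 2.56 and GSTM3 at 2.38 on the higher side. Most points of each list lie between the dotted lines at -1 and 1.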

How the data were processed

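Reads were filtered by the authors with fastp 0.23.1 and assigned by Kallisto 0.48.0 to Ensembl release 108 transcripts (Sscrofa11.1). The deposited values are, for every gene in every library, an estimated count without normalization and a TPM value. The summing of transcripts to genes and any strand setting are not given in the sources used here. Estimated counts were rounded, and 21318 of 22516 genes had at least 1 count over the libraries. Names, matched for 15527 genes, came from a name table, and coordinates from RefSeq.

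Groups were compared with edgeR 4.0.16 in R 4.3.3 (TMM factors, quasi-likelihood test, condition only, 8 libraries). The test was tried on simulated counts of independent libraries without shared sows, so that trial does not cover the design used here. Alternatives used edgeR's other tests, DESeq2 1.42.0, limma 3.58.1, other scalings, filters and pseudocounts, a replicate block, sums per sow and left-out libraries. Permutation tests used scipy 1.17.1 in Python 3.11.15. Genes were named as members, by pattern, and by the cutoff or the 3 highest mean TPM of a list. CYB5B, AHR, AHRR, TIPARP and CYP2D6 were named after their values were seen. The members and lists were chosen with earlier results of these data known. On the TMM scale a count of 0 allowed 0.616 CPM in control 1 and at most 0.0451 CPM elsewhere (from 3 counts, counting error only).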

Additional observations from a re-analysis of the deposited data

Results flagged for a closer look

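In 26 groups of 4 libraries, formed by the enzyme genes and the pathway genes past the cutoff, the highest and the lowest library were compared with the rest of the group, and 2 stood apart, where chance alone flags about 1 group in 20. CBR1 was at 16.1 CPM in control 2, against 1.03 to 2.35 CPM in the other 3 controls, a gap of 0.912 of the range. RXRG was at 1.95 CPM in control 3, against 0.600 to 0.782 CPM in the other 3 controls, a gap of 0.865 of the range. Without control 3 the log2 fold change of RXRG was -1.62 (unadjusted p = 0.00258 in edgeR's test), still past the cutoff. None of the 8 enzyme genes had a library that stood apart in this way in either group.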

How the results depend on the processing

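The count of enzyme genes past the cutoff, 1, was 0 under limma voom, limma on log2(TPM + 0.1) or log2(TPM + 1), the replicate block and without both control 1 and control 4 (chosen after seeing the data), 0 to 2 with counts summed per sow, and 0 to 2 with single libraries left out. The cause was not tested. Over all genes, 1368 became 727 and 321 under limma on log2(TPM + 0.1) and log2(TPM + 1), 583 with the block, 881 without both libraries, 368 at the lowest sow pairing and 867 to 2414 with single libraries left out. Other phase I enzymes past the cutoff numbered 1 under limma voom, log2(TPM + 1) and the block, 1 to 5 per sow and 2 to 6 with single libraries left out. Conjugating enzymes numbered 2 under the exact and likelihood ratio tests, limma voom, RLE, filterByExpr and without both libraries, 6 at the highest sow pairing and 1 to 6 with single libraries left out. Regulators numbered 0 on log2(TPM + 1) and 1 to 2 with single libraries left out, where enzyme genes without overlap numbered 0 to 1.

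FMO5 turned to 0.097 under limma voom, 0.038 with the block and 0.20 at the highest sow pairing, and EPHX1 to -0.34 without both libraries and -0.30 at the lowest sow pairing. With single libraries left out, FMO5 ran from -0.26 to 0.33 and EPHX1 from -0.15 to 0.64. CYP1B1 passed in 10 of 22 alternatives and was -1.19 with the block (unadjusted p = 0.216 in edgeR's test). Of 154 alternatives for the other 7 genes, 2 passed, and no adjusted p of an enzyme gene fell below 0.171 in these alternatives, which hold only the lowest and the highest sow pairing of each gene. ADH7 and GSTM3 passed in 29 of 29 alternatives, RXRG in 28, AOX1 in 21 and CBR1 in 14. These 29 hold all 9 sow pairings, so their shares are not on the same basis as those of the enzyme genes. Same-numbered libraries did not deviate together (r from -0.67 to 0.20, with 0 libraries closest to their own number), so the number pairs nothing. The few counts of control 1 limit low genes such as CYP1A1.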
